A study of Rattus norvegicus with 8 samples.

Results

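The thin-filament troponins and tropomyosins of rat thigh muscle were followed on 8 arrays, with the fast and the slow isoform of each troponin subunit compared within the same muscle. The members are the probes whose gene symbol in the series' probe annotation is Tnnc1, Tnnc2, Tnni1, Tnni2, Tnnt1, Tnnt3, Tpm1, Tpm2 or Tpm3. Of these 9 genes 8 have a named probe, among 13337 genes named on the array. They account for 9 of its 13793 named probes and 22523 probes in all. Tpm2 is not analysed here. The 4 treated animals were Wistar Han rats, an outbred stock, that took compound 197 with their feed at 150 ppm over 28 days, and 4 Wistar Han rats on standard chow for 28 days were the controls. The labels place compound 197 among the sulfonyl isoxazolines and give it a code name only. The muscle is labelled femoris, and each array carried RNA from 1 rat, so n = 4 per group throughout. Which muscle of the thigh was sampled is not stated beyond this label.

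Troponin sits on the thin filament and turns a rise in calcium into contraction. Troponin C binds calcium, troponin I holds back the myosin interaction at rest, and troponin T ties the complex to tropomyosin, a coiled coil that lies along actin. Fast and slow fibres carry different genes for each troponin subunit: Tnnc2, Tnni2 and Tnnt3 encode the fast forms, and Tnni1 and Tnnt1 the slow skeletal forms, while Tnnc1 serves slow fibres and heart. Tpm1 encodes the alpha tropomyosin of fast muscle and heart, and Tpm3 the slow one.

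A probe was called when its limma test gave an adjusted p under 0.05 over the 9873 probes that were detected on at least 4 of the 8 arrays. Of the 8 member probes tested, 1 was higher with compound 197 and 0 were lower, where the share called among all probes tested was 16.3% higher and 24.2% lower. The 1 was Tnni2, fast troponin I. At an unadjusted p under 0.05 the counts were the same, 1 higher and 0 lower. The median change of the 8 member probes was -0.0011 on the log2 scale, beside -0.18 over all probes tested.

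Promoter windows show the sequence context of the members on which the comparison turns: the fast subunit that was called, a fast subunit that was not, and a pair of slow subunits. They are RefSeq sequences of the GRCr8 assembly, 250 bases before to 50 after the annotated start, and 7 of the 9 member genes had one. Capitals mark the E-box CAGGTG and the TATA-like word TATAAA, on either strand.
Tnni2, chr1:207024240-207024539, plus strand: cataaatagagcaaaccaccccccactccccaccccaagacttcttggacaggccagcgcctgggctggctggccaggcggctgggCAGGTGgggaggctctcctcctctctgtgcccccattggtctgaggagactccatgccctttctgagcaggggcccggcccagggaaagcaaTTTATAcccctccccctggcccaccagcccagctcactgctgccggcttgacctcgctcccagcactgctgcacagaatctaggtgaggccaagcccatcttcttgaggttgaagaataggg
Tnnc2, chr3:173935290-173935589, minus strand: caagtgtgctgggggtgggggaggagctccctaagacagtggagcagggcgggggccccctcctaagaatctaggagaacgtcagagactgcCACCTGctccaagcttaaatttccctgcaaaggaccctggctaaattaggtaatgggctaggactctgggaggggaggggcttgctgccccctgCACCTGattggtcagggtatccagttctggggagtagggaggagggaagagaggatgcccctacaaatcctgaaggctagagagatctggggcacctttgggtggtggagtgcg
Tnni1, chr13:49781279-49781578, plus strand: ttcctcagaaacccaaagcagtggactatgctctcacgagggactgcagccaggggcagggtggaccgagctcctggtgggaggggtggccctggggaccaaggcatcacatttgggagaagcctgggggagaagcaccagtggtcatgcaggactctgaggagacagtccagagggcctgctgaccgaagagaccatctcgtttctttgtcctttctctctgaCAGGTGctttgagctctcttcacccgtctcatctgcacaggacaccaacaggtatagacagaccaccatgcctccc
Tnnt1, chr1:78348785-78349084, plus strand: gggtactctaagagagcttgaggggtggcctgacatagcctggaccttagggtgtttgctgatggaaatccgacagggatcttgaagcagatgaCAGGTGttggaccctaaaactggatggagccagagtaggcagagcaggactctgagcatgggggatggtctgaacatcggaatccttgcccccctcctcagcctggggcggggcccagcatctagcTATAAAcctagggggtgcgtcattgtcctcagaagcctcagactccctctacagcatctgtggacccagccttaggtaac
E-boxes are the words that myogenic bHLH factors such as MyoD and myogenin bind. CAGGTG was present in these 4 windows and in none of those of Tpm1, Tpm2 and Tpm3. It began at position -164 from the start in Tnni2, at -158 and -64 in Tnnc2, at -26 in Tnni1 and at -156 in Tnnt1. The word occurs in 18.8% of all 33469 windows of this length, and CAGCTG, the other E-box searched, in 15.1% of them. Of the member genes, CAGCTG was found in Tpm3 only, in each of its 3 windows. TATAAA lay at -30 in Tnnt1 and, on the opposite strand, at -72 in Tnni2, and 14.2% of all windows hold it. The M-CAT word CATTCC, found in 14.2% of all windows, was in none of the 4 and lay at -31 in Tpm1. These matches describe letters in the windows, and the files hold no measurement of binding.

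Fast troponin I was the member that rose. On the log2 scale after quantile normalization, Tnni2 stood at 15.27, 15.15, 15.28 and 15.17 in the compound 197 muscles, against 13.53, 13.92, 13.59 and 13.91 in the control muscles. All 4 treated animals lay above all 4 controls, with a gap between the groups wider than the spread inside either. No other tested member had groups apart: 16.2% of all probes tested lay above all controls in this way and 23.8% below them. The group means were 15.22 ± 0.066 with compound 197 and 13.74 ± 0.21 in controls (SD, n = 4 each). The difference was 1.48 ± 0.12 (SE), a 2.79-fold rise with a 95% interval of 2.31 to 3.37 and a limma adjusted p of 1.46e-05.

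**Figure D1:**
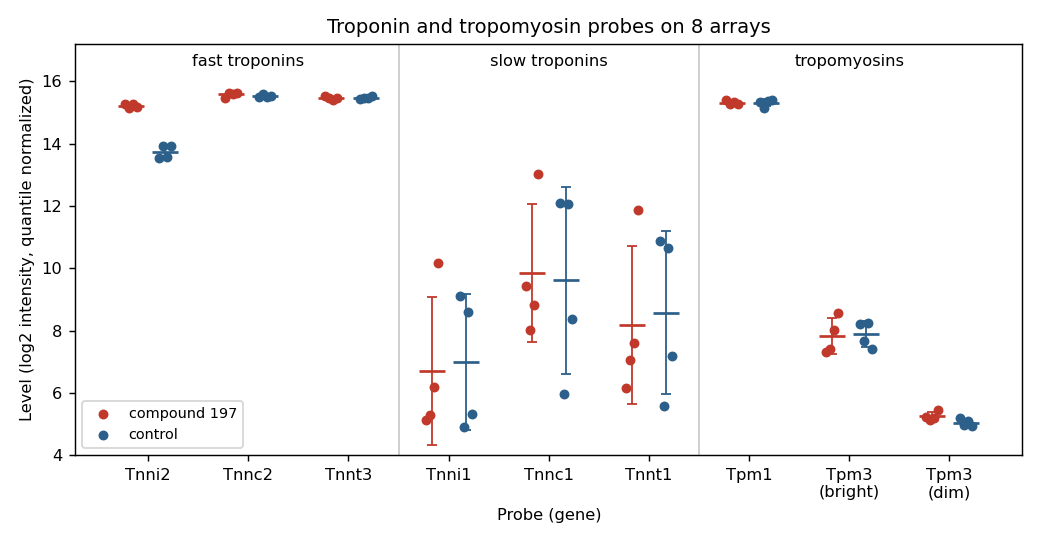
Log2 level (vertical axis, quantile normalized intensity) of the 9 troponin and tropomyosin probes, with compound 197 in red left of control in blue. Points are arrays, bars are means with SD (n = 4 each). Tnni2 separates the groups, the other fast troponins and Tpm1 sit between 15.14 and 15.64 on every array, and the slow troponins spread widely inside each group.

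The raw intensities showed the same separation before any scaling. Tnni2 read 45223, 38859, 40723 and 40808 units with compound 197, against 12639, 15869, 9219 and 13704 units in controls, a ratio of raw means of 3.22. The probe reached 69.1 to 74.4% of the brightest probe of its array in treated muscle, against 18.0 to 30.3% in control muscle. Between 23 and 32 probes were brighter than Tnni2 on the treated arrays, where 128 to 189 were brighter on the control arrays. Fast troponin I was near the top of the range in treated muscle, and in its upper part in control muscle.

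Quantile normalization gives each array the same highest value. Probes that are brighter still in control muscle therefore had little or no room for a rise of this size. Among 144 probes within 0.5 log2 units of the control mean of Tnni2, 2 rose as much, Tnni2 included. This window extends above Tnni2 as well as below it, so the count does not measure how rare such a rise was. Over all 9873 probes 617 did, or 6.25%. Tnni2 is represented by 1 probe, and so has no second probe to set against it. Of 131 genes with at least 2 tested probes, 40 had a probe that was called higher and 2 had all their probes called higher.

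Fast troponin C and fast troponin T did not pass the test. Tnnc2 stood at 15.47, 15.64, 15.59 and 15.64 in treated muscle, against 15.48, 15.59, 15.48 and 15.53 in control muscle. Tnnt3 stood at 15.52, 15.47, 15.40 and 15.47 with compound 197, against 15.43, 15.47, 15.45 and 15.52 in controls. For each gene the groups overlapped almost entirely. The change of Tnnc2 was 0.059 ± 0.089 (SE, adjusted p = 0.622 in limma), with a 95% interval of -0.14 to 0.26. That of Tnnt3 was -0.0049 ± 0.084 (adjusted p = 0.968), with an interval of -0.20 to 0.19. With control means of 15.52 and 15.47, near the top of the range, neither probe had room for a rise the size of that of Tnni2. The intervals are therefore not set against that rise.

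These probes were among the brightest on every array, and quantile normalization sets each value by its rank. Raw Tnnc2 reached 84.1 to 99.98% of the brightest probe in treated muscle and 74.3 to 86.5% in controls, with 1 to 8 probes above it. Raw Tnnt3 reached 74.5 to 87.4% with compound 197 and 73.9 to 80.4% in controls. Unscaled, Tnnc2 read 51095 to 55574 units in treated muscle, against 40692 to 45334 in controls, and Tnnt3 read 43921 to 53110 units in treated muscle, against 38933 to 43738 in controls. Neither gene's groups overlapped before scaling, but the share of all probes with raw groups apart was not computed. The brightest probe read 55583 to 60773 units on treated arrays and 51201 to 56896 units on control arrays. The ratios of raw means were 1.24 for Tnnc2 and 1.18 for Tnnt3. Median scaling, which equalizes the array medians only, gave changes of 0.69 (limma adjusted p = 0.0173) and 0.61 (adjusted p = 0.0318). With it 4 of the 8 member probes were called higher and 0 lower, beside 23.2% and 1.91% of all probes tested. The same scaling shifted the median change of all probes to 0.31 and that of Tnni2 to 2.09. Whether these bright probes were limited by the scanner's upper range was not tested.

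**Figure D2:**
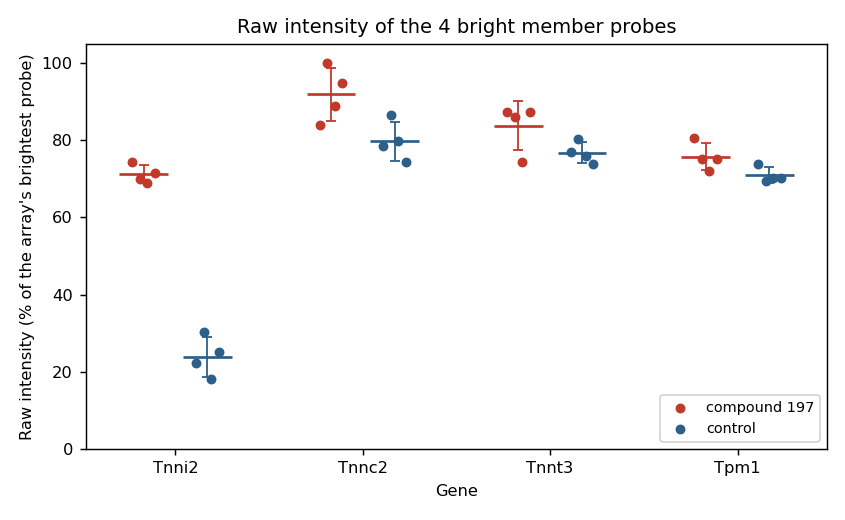
Raw intensity of the 4 bright member probes as a percent of the brightest probe on the same array (vertical axis, starting at 0), with compound 197 left of control for each gene. Points are arrays, bars are means with SD (n = 4 each). Tnni2 lies at 69.1 to 74.4% with compound 197 and 18.0 to 30.3% in controls, while Tnnc2, Tnnt3 and Tpm1 lie above 69% in either group.

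Set against its fast partners on the same array, fast troponin I gave the following differences. Tnni2 less Tnnc2 was -0.20, -0.48, -0.31 and -0.47 log2 units with compound 197, against -1.95, -1.67, -1.90 and -1.62 in controls. Tnni2 less Tnnt3 was -0.25, -0.31, -0.12 and -0.30 with compound 197, against -1.90, -1.55, -1.86 and -1.61 in controls. The groups did not overlap in either case, and the differences between groups were 1.42 and 1.49. These contrasts were chosen after the values had been seen and restate the levels above, with Tnnc2 and Tnnt3 held by rank near the top of the range, so they are given with no test. Probe affinities differ between genes, so a value near 0 does not mean equal amounts of the transcripts.

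Each slow troponin varied far more between rats of one group than between the groups. Slow troponin I, Tnni1, stood at 5.13, 5.29, 6.20 and 10.18 with compound 197, against 9.12, 4.92, 8.59 and 5.34 in controls. Tnnc1, troponin C of slow fibres, stood at 9.44, 8.03, 8.83 and 13.04 with compound 197, against 12.08, 5.97, 12.07 and 8.36 in controls. Tnnt1, slow troponin T, stood at 6.15, 7.07, 7.60 and 11.87 with compound 197, against 10.89, 5.58, 10.66 and 7.19 in controls. In all 3 genes the same 3 arrays were high, compound 197 replicate 4, control replicate 1 and control replicate 3, in that order, and control replicate 2 was lowest.

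The distance between the highest and the lowest array was 38.3-fold for Tnni1, 134-fold for Tnnc1 and 78.3-fold for Tnnt1. Their SDs within groups, 2.27, 2.63 and 2.58 log2 units, ranked 13, 2 and 4 among the 9873 probes tested, whose median SD was 0.21. Among the fast troponins the SD was 0.15 for Tnni2 (rank 7301), 0.067 for Tnnc2 (rank 9731) and 0.043 for Tnnt3 (rank 9857). The small SDs of Tnnc2 and Tnnt3 are those of probes near the top of the range, where quantile normalization sets the value by rank. Tnni1 was detected on 2 of 4 arrays in each group, so its low values are near background.

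No slow troponin passed the test, and the intervals of their changes spanned several log2 units. Tnni1 differed by -0.29 ± 1.32 (SE, limma adjusted p = 0.876), Tnnc1 by 0.22 ± 1.53 (adjusted p = 0.922) and Tnnt1 by -0.41 ± 1.49 (adjusted p = 0.847). The 95% intervals reached -3.27 to 2.69 for Tnni1, -3.24 to 3.67 for Tnnc1 and -3.79 to 2.97 for Tnnt1. For each of these genes there were arrays whose removal, 1 at a time, put the change on the other side of 0.

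**Figure D3:**
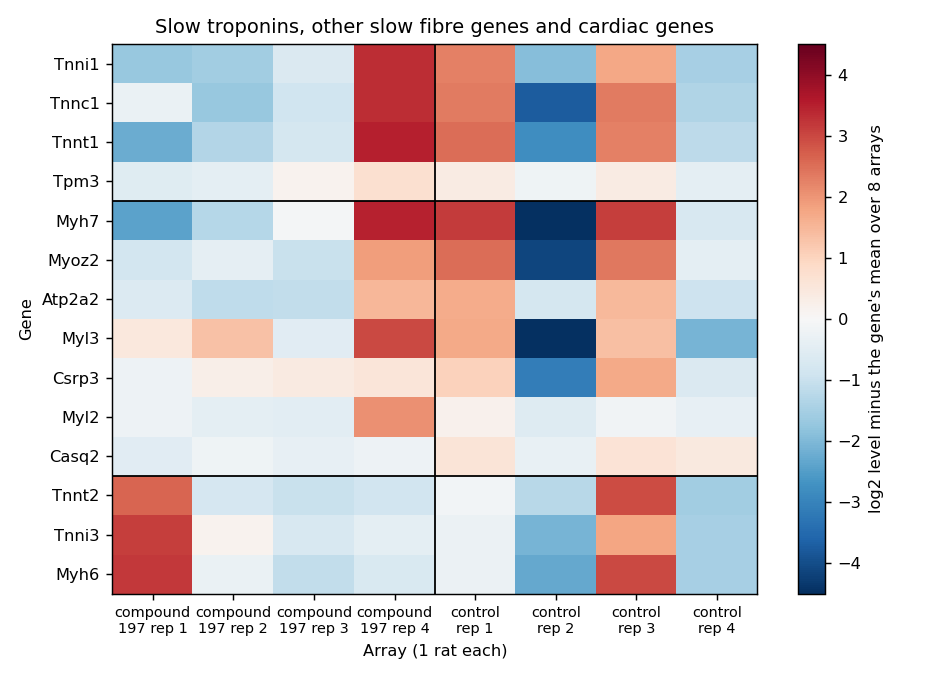
Log2 level less the gene's mean over the 8 arrays (colour scale, red high and blue low, cut at 4.5 units either way) for slow troponins and Tpm3 (top block), other slow fibre genes (middle block) and cardiac genes (bottom block), with compound 197 arrays left of control arrays. Compound 197 replicate 4 and control replicates 1 and 3 are red for the slow troponins, while compound 197 replicate 1 and control replicate 3 are red for the cardiac genes.

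The 3 arrays highest for the slow troponins were also highest for most other slow fibre genes tested, not always in the same order. Of the 7 other slow genes tested, 6 had their 3 highest values on those same 3 arrays, as did 1.55% of all probes tested. For 3 of the 6 the margin was narrow. The lowest of the 3 arrays and the next array stood at 12.34 and 12.29 for Myl3, and 9.59 and 9.44 for Csrp3. For Myl2, detected on 2 of 4 control arrays, they stood at 5.69 and 5.64. Myh7, the slow myosin heavy chain, stood at 9.08, 10.21, 11.42 and 14.97 with compound 197, against 14.65, 6.24, 14.62 and 10.79 in controls. It had the largest spread within groups of any probe tested. Myoz2, which tethers calcineurin at the Z-disc of slow fibres and heart, stood at 13.33 to 13.97 on the 3 arrays and at 7.33 to 11.04 on the other 5. Atp2a2, the calcium pump of slow fibres and heart, stood at 14.38 to 14.60 on the 3 and 11.78 to 12.31 on the other 5. In whole muscle a smaller share of slow fibres and less slow transcript per fibre cannot be told apart.

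Tnni2 did not follow those 3 arrays across the groups. The control muscles with high slow troponins, replicates 1 and 3, had Tnni2 at 13.53 and 13.59, where the other control muscles had 13.92 and 13.91. The treated muscle with high slow troponins, replicate 4, had 15.17, inside the range of 15.15 to 15.28 of the treated group. The rise was 1.43 to 1.55 when any 1 of the 8 arrays was left out.

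The pairing of each fast subunit with its slow partner asks whether the balance of isoforms shifted. Tnni2 less Tnni1 was 10.14, 9.86, 9.08 and 4.99 with compound 197, against 4.41, 9.0, 5.0 and 8.57 in controls. Tnni1 was detected on 2 of 4 arrays in each group, so the values on the other arrays are taken against a probe not above background and are at best lower bounds. The groups overlapped, with means of 8.52 ± 2.39 with compound 197 and 6.75 ± 2.37 in controls (SD, n = 4 each). Their difference was 1.77 (exact permutation p = 0.2, adjusted p = 0.6 over 3 pairs), with a 95% interval from the permutation test of -4.0 to 5.72. Tnnc2 less Tnnc1 averaged 5.75 ± 2.20 with compound 197 and 5.90 ± 3.05 in controls, a difference of -0.16 (exact permutation p = 0.914, interval -7.02 to 4.2). Tnnt3 less Tnnt1 averaged 7.29 ± 2.55 with compound 197 and 6.89 ± 2.64 in controls, a difference of 0.40 (exact permutation p = 0.914, interval -6.29 to 4.82). Tnnc2 and Tnnt3 were held by rank near the top of the range, with changes of 0.059 and -0.0049 between the groups. Their pair differences are therefore nearly those of Tnnc1 (0.22) and Tnnt1 (-0.41) with the sign turned. These pairs had little room to register a rise of the fast gene, so their tests cannot decide whether the isoform balance shifted. No pair passed, and a shift from slow to fast troponins was not detectable in this design. The intervals leave room for large shifts in either direction.

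**Figure D4:**
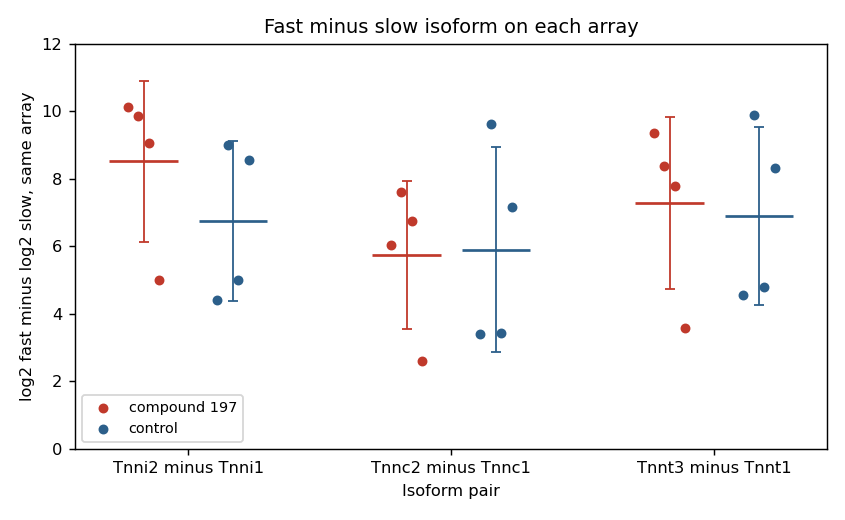
Log2 level of the fast isoform minus that of the slow isoform on the same array (vertical axis), with compound 197 left of control for each subunit pair. Points are arrays, bars are means with SD (n = 4 each). In every pair 1 treated array and 2 control arrays sit well below the others of their group, and the groups overlap.

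Among the tropomyosins, Tpm1 behaved as the fast troponins C and T did. It stood at 15.40, 15.27, 15.34 and 15.27 with compound 197, against 15.35, 15.14, 15.38 and 15.40 in controls. The groups overlapped, and the change was 0.0027 ± 0.098 (SE, limma adjusted p = 0.985), with a 95% interval of -0.22 to 0.22. Median scaling placed it at 0.58 (adjusted p = 0.0325), close to its shift of Tnnc2 and Tnnt3. The ratio of raw Tpm1 means, compound 197 over control, was 1.15, and the raw groups overlapped.

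Tpm3 has 2 probes, designed to different transcript records. The brighter probe stood at 7.31, 7.43, 8.03 and 8.57 with compound 197, against 8.23, 7.67, 8.24 and 7.42 in controls. Its 3 highest arrays were those of the slow troponins, over a narrower range of 2.39-fold. The groups overlapped, and the change was -0.055 ± 0.30 (SE, limma adjusted p = 0.896). The dimmer probe was detected on 1 treated array and 0 control arrays, and was not tested. Intensities of different probes are not on a common scale, so the levels of these genes are not ranked against each other.

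**Figure D5:**
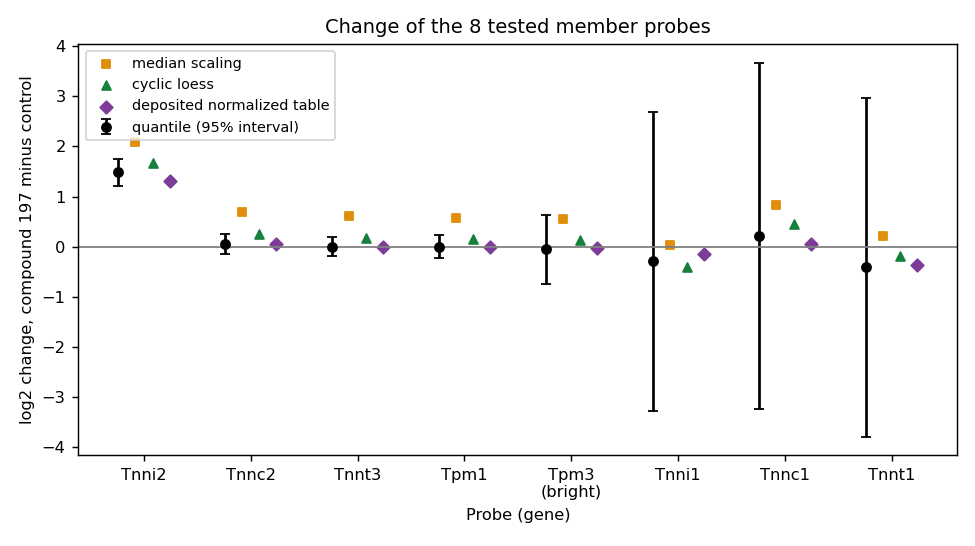
Change in log2 level, compound 197 minus control (vertical axis), of the 8 tested member probes. Black circles are the quantile normalized values with 95% intervals, and the other symbols give the change with median scaling, cyclic loess and the deposited normalized table. Tnni2 stays between 1.32 and 2.09, while the intervals of the slow troponins span several units either side of 0.

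Of 3 tested troponin and tropomyosin genes outside the named set, 1 was higher and 0 were lower. Among all probes tested, 16.3% were called higher and 24.2% lower. Tpm4, a tropomyosin of the cytoskeleton that is also known from regenerating muscle, stood at 8.53, 8.61, 9.21 and 9.31 with compound 197, against 8.10, 8.20, 8.01 and 8.13 in controls. All treated values lay above all control values, as for 16.2% of all probes tested. The rise was 0.81 ± 0.19 (SE, limma adjusted p = 0.00878), or 1.75-fold. Of 3 tested genes for markers of regenerating muscle (such as embryonic myosin and myogenin) 0 were called, and their summed intensity was 1545 to 1977 units with compound 197 and 1439 to 2240 in controls. The summed fibroblast markers, with 0 of 5 called, were 26647, 15234, 57928 and 57180 units with compound 197 (replicates 1 to 4). In controls they were 20253, 49135, 44958 and 33798. Within the treated group, replicates 3 and 4 were highest for these markers and for Tpm4. Among controls, replicate 2 was highest for both, while replicate 3, lowest for Tpm4, had a fibroblast sum of 44958. The part of fibroblast or regenerating muscle content in the Tpm4 result was not tested.

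The cardiac troponins had an array pattern of their own. Tnnt2, cardiac troponin T, stood at 12.03, 8.68, 8.43 and 8.57 with compound 197, against 9.30, 8.17, 12.35 and 7.85 in controls. Tnni3, cardiac troponin I, stood at 10.47, 7.495, 6.63 and 6.92 with compound 197, against 7.09, 5.26, 9.11 and 5.84 in controls. For each of them compound 197 replicate 1 and control replicate 3 were the 2 highest arrays, as they were for 1.87% of all probes tested. The same arrays were highest for Myh6, the cardiac alpha myosin heavy chain, at 12.45 and 12.23, where the other 6 arrays had 6.94 to 8.999.

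Neither cardiac troponin was called. Tnnt2 changed by 0.0091 ± 1.10 (SE, limma adjusted p = 0.995) and Tnni3 by 1.05 ± 1.01 (adjusted p = 0.429). The summed intensity of 5 cardiac markers, Tnni3 among them, was 498 to 7126 units with compound 197 and 287 to 5543 in controls. Of the 5, 3 were tested: Myh6, Tnni3 and Nppb. Nppa was detected on 1 array of each group and Myl7 on 1 control array only. Neither followed the cardiac arrays: both were lowest on compound 197 replicate 1, at 5.24 and 5.02, near background. Control replicate 3 was high in the slow and in the cardiac set, whereas compound 197 replicate 1 was high in the cardiac set and not in the slow set. Tnnc1, which heart muscle also uses, was highest on the 3 slow arrays, and compound 197 replicate 1 came next at 9.44, whereas for Tnni1 and Tnnt1 that array was the second lowest.

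Some of these genes lie side by side in the rat genome. In the GRCr8 annotation Tnni2 and Tnnt3 are neighbours on chromosome 1 with 2 protein-coding genes, Lsp1 and Prr33, between them. Tnni2 rose and Tnnt3, which is near the top of the range, did not pass the test. Tnni1 and Tnnt2 lie on chromosome 13 with Lad1 between them, and Tnnt1 and Tnni3 are adjacent on chromosome 1. In those neighbouring pairs the slow gene was high on 3 arrays and the cardiac gene on 2, with control replicate 3 in common.

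Of 10 other thin filament genes tested, 2 were higher, 3 were lower and 5 did not pass, with a median change of -0.29. These counts are near the shares over all probes tested, 16.3% higher and 24.2% lower. Klhl41, a kelch protein that stabilizes nebulin, rose by 4.97 ± 0.12 (SE, limma adjusted p = 1.88e-08), at 11.87 to 12.06 with compound 197 and 6.77 to 7.23 in controls. Tmod4, the tropomodulin that caps pointed ends in fast muscle, rose by 0.38 ± 0.10 (adjusted p = 0.0189), and this call was lost without compound 197 replicate 2 (adjusted p = 0.0555).

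The leiomodins, which promote actin assembly at the pointed end, went the other way. Lmod2 fell by 1.82 ± 0.45 on the log2 scale (limma adjusted p = 0.0123) and Lmod3 fell by 0.94 ± 0.17 (adjusted p = 0.00302). The groups of Lmod2 overlapped, at 7.58 to 9.34 with compound 197 and 9.24 to 11.16 in controls. Those of Lmod3 did not, at 10.18 to 10.83 and 11.21 to 11.81, where 23.8% of all probes tested lay below all controls. Cfl2, muscle cofilin, which severs actin, fell by 0.28 ± 0.096 (adjusted p = 0.0407), a call that was lost when any array but control replicate 3 was left out (adjusted p = 0.111 at most). Under median scaling Cfl2 lay at 0.32, beside a median of 0.31 over all probes, and was not called. With that scaling neither Lmod2 (adjusted p = 0.114) nor Lmod3 (adjusted p = 0.444) passed the test. Cfl2 was also not called with cyclic loess (limma adjusted p = 0.549), against the median change (0.462) or with a replicate block (0.0858). Lmod2 and Lmod3 were called lower in each of those settings.

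Fast fibre proteins outside the thin filament were mostly near the top of the range, as the fast troponins were. Of 8 tested, 2 were higher, 0 were lower and 6 did not pass, with a median change of 0.13, beside 16.3% higher and 24.2% lower among all probes tested. The count higher was 6 with median scaling, 5 against the median change and 4 with cyclic loess. Among all probes tested, 23.2%, 19.7% and 19.4% were called higher in these settings. Mylpf and Mybpc2, a fast myosin light chain and a fast myosin-binding protein, were among those added in each case. The 2 called with quantile normalization were myosin heavy chains of different fast fibres. Myh2, of fast oxidative fibres, stood at 9.997 to 11.24 with compound 197 and 5.51 to 6.81 in controls, a rise of 4.36 ± 0.33 (SE, limma adjusted p = 9.68e-06). Myh4, of fast glycolytic fibres, stood at 12.87 to 13.17 with compound 197 and 8.64 to 9.95 in controls, a rise of 3.63 ± 0.26 (adjusted p = 5.84e-06). These paralogs are close in sequence, and the specificity of their probes was not tested.

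Of the 7 other slow genes tested, 0 were higher and 1 was lower, where 24.2% of all probes tested were lower. Casq2, the calsequestrin of slow fibres and heart, fell by 0.65 ± 0.21 (limma adjusted p = 0.0355), and the call was lost when any array but control replicate 2 was left out (adjusted p = 0.0927 at most). It was -0.12 with median scaling (adjusted p = 0.723) and was not called with cyclic loess or against the median change. It was the gene of this list that did not follow the 3 arrays. Among 7 tested regulators of fibre type 1 was higher, where 16.3% of all probes tested were: Ppargc1a, a coactivator that promotes oxidative and slow fibre genes, at 7.07 to 7.62 with compound 197 and 5.13 to 5.96 in controls, where it was detected on 1 of 4 arrays. Its difference was 1.88 ± 0.20 (adjusted p = 0.000108) against a control group mostly not above background. Ppargc1a met the detection filter through the treated arrays, the group where it is high. It was not tested when detection on all 8 arrays was required, and was called with no detection filter (limma adjusted p = 0.000484). The size depends on the background treatment, with 1.11 without background correction and 1.23 in the deposited normalized table. Median scaling called 3 of these 7 higher, Mef2d and Tbx15 as well as Ppargc1a, beside 23.2% of all probes tested. Among 5 tested splicing regulators of muscle, which shape troponin T and tropomyosin transcripts, 2 were lower, beside 24.2% of all probes tested: Rbfox2 by -0.40 ± 0.094 (adjusted p = 0.00987) and Ptbp1 by -0.62 ± 0.10 (adjusted p = 0.00156). Under median scaling, which moved the median of all probes to 0.31, Rbfox2 lay at 0.28 and Ptbp1 at 0.013, and neither was called. Ptbp1 was called lower with cyclic loess (limma adjusted p = 0.0138) and against the median change (adjusted p = 0.0102), where Rbfox2 was not (adjusted p = 0.304 and 0.121).

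Genes whose levels followed Tnni2 most closely over the 8 arrays were Ampd1, the AMP deaminase of skeletal muscle, with a Pearson r of 0.996, Zc3h15, a zinc finger protein, with 0.996, and Cited2, a transcriptional coregulator, with 0.995. They rose by 4.05, 3.90 and 2.28 log2 units. The arrays share the split into treated and control animals, and 415 of 7300 named probes tested had an r above 0.95 with Tnni2.

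Technical features of the arrays moved with the groups. Detected probes numbered 9743 to 10498 on the treated arrays and 8310 to 9507 on the control arrays. The share of probes called depended on the scaling: 1613 higher and 2386 lower with quantile normalization, 2288 higher and 189 lower with median scaling, and 1915 higher and 792 lower with cyclic loess. Of 5 skeletal muscle fibre markers tested, Acta1, Ckm, Des and Mylpf stood at 15.01 to 15.77 on every array, which fitted the muscle label. Myh4, from the same list, was called higher and stood at 8.64 to 9.95 in controls. Smooth muscle markers summed to 1486 to 1868 units with compound 197 and 1854 to 2394 in controls. Of the 2 tested, Smtn (smoothelin) was called lower, at 10.01 to 10.44 with compound 197 and 10.52 to 10.90 in controls (limma adjusted p = 0.0229), and Tagln did not pass (8.73 with compound 197 and 8.69 in controls on average, adjusted p = 0.757). Of the leukocyte markers, 0 were detected on enough arrays to be tested. The part of these differences in the member results was not tested.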

How the data were processed

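Total RNA from the thigh muscle of 8 rats was made into biotinylated cRNA for 1-colour Illumina rat beadchips, per the labels' protocols. The authors deposited non-normalized and normalized intensity values, each with a detection p-value beside every intensity, per the file headers. For the normalization method and the scanner software the sources used here give no name. The non-normalized intensities were taken through limma's neqc (background from the detection p-values, offset 16, quantile normalization, log2). Tested probes had a detection p under 0.05 on 4 or more arrays. Groups were compared per probe with limma (lmFit, eBayes, two-sided), with Benjamini-Hochberg adjustment over all 9873 probes tested and a call at adjusted p under 0.05. Fast less slow differences within an array were compared with exact two-sided permutation tests, and their intervals are from inverting those tests.

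Probe names came from the platform annotation (13793 probes with 1 symbol, 0 with several, 8730 not listed), updated through a RefSeq table of GRCr8. All 9 member genes are named, every called gene of the other lists (the 6 with the smallest adjusted p where more than 6 were called), and the 3 genes most like a called member. The members and lists were chosen with earlier results of these data known. Alternatives were other background and scaling choices, the deposited normalized table, other detection filters, a replicate block and each array left out in turn. The number of arrays limits the precision. No slide, cage or scan is given, so no p-value is adjusted for them. Versions were R 4.3.3, limma 3.58.1, Python 3.11.15, pandas 2.3.3 and matplotlib 3.10.9.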

Additional observations from a re-analysis of the deposited data

Results flagged for a closer look

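Cardiac troponin T, Tnnt2, had 1 treated array far from the others. Compound 197 replicate 1 stood at 12.03 log2 units, where the other 3 treated arrays stood at 8.43 to 8.68, a gap of 0.931 of the group's range, which is over Dixon's 95% limit for 4 samples. It was the only such case among 52 groups of 4 examined, which did not cover every probe of the lists. Chance gives about 1 in 20, so 1 case among these 52 is no more than chance would give. Groups outside the 52 had arrays set apart as well. For Myl2, compound 197 replicate 4 stood at 7.93 and the other 3 treated arrays at 5.38 to 5.64. For Esrrg, control replicate 2 stood at 5.36 and the other 3 controls at 6.37 to 6.57. Compound 197 replicate 1 was also highest for Tnni3 (10.47) and Myh6 (12.45).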

How the results depend on the processing

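Tnni2 was called in all 18 alternatives, with a change of 1.32 (deposited normalized table) to 2.09 (median scaling) and limma adjusted p of 2.2e-06 to 0.000836. The count of member probes called was 1 higher and 0 lower in every alternative except median scaling, which called 4 higher: Tnni2, Tnnc2 (0.69), Tnnt3 (0.61) and Tpm1 (0.58). That scaling moved the median change of all probes to 0.31, against -0.18 with quantile normalization. Calls over the lists, 6 higher and 6 lower, became 13 and 0 with median scaling, 10 and 3 with cyclic loess and 10 and 3 for change against the median change, and ran from 5 to 7 higher and 4 to 7 lower when 1 array was left out. The shares called over all probes tested moved as well. They were 23.2% higher and 1.91% lower with median scaling, 19.4% and 8.02% with cyclic loess, and 19.7% and 8.53% against the median change. Uncalled changes crossed 0 as follows. Tnnt3 lay at 0.18 with cyclic loess and 0.18 against the median change, and from -0.023 to 0.017 with 1 array left out. The brighter Tpm3 probe lay at 0.55 with median scaling, 0.14 with cyclic loess and 0.12 against the median change, and from -0.30 to 0.12 with 1 array left out. Tnni1 lay at 0.029 and Tnnt1 at 0.22 with median scaling. With 1 array left out, Tnni1 ran from -0.98 to 0.22, Tnnc1 from -0.9996 to 1.04, Tnnt1 from -1.66 to 0.37 and Tpm1 from -0.058 to 0.027. Tpm1 was -0.0046 in the deposited normalized table. For the pairs, Tnnc2 less Tnnc1 was 0.016 without background correction and 0.0049 in the deposited normalized table, and ran from -0.995 to 1.08 with 1 array left out. Tnnt3 less Tnnt1 ran from -0.38 to 1.65 and Tnni2 less Tnni1 from 1.01 to 2.96. The cause of these shifts was not tested. Tnni1 was not tested where an array it was detected on was left out, nor when detection on all 8 arrays was required. Whether the same replicate number pairs animals is not settled by these data. Deviations of same-numbered arrays correlated at -0.13 to -0.042, inside the range of -0.30 to 0.37 of differently numbered arrays. With the replicate number as a block, Tnni2 kept its change of 1.48 (limma adjusted p = 0.000836) and calls over all probes were 1492 higher and 1750 lower. Calls over all probes were 905 higher and 2290 lower when detection on all 8 arrays was required, and 931 and 1765 with 1 probe per gene. Leaving out 1 treated array took calls higher to between 1038 and 1068, against 1613 with all arrays. The filter still required detection on 4 arrays, so probes detected on the 4 treated arrays only were then no longer tested. Leaving out 1 control array left 1500 to 1626 calls higher. Leaving out compound 197 replicate 4 took calls lower to 1528, against 2386.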
